A study of Mus musculus with 9 samples.

Results

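The 10 mouse genes described here encode the sensors of endoplasmic reticulum (ER) stress, the kinases that phosphorylate translation initiation factor eIF2 and the proteins that act with them: Ern1, Xbp1, Atf6, Atf6b, Mbtps1, Mbtps2, Eif2ak3, Eif2ak4, Eif2ak1 and Eif2s1. They were chosen by name, with no threshold on their values, and each was found by its NCBI Gene number. These were 10 of 27179 gene identifiers, and all 10 were among the 13129 genes with enough counts to be tested. The data are RNA immunoprecipitation sequencing (RIP-seq), in which RNA that comes down with a protein is sequenced, from CD43-depleted splenic B cells of wild-type mice. Every library came from cells cultured for 72 h with CD40L at 5 ug/mL, anti-IgM at 10 ug/mL and IL-4 at 20 ng/mL, where the methods name an anti-CD40 antibody in place of CD40L. Strain and age are not given in the labels. The 3 groups had 3 libraries each, namely RNA precipitated by an antibody to the phosphorylated form of UPF1 (p-UPF1), RNA precipitated with normal rabbit IgG, and RNA of the lysate itself (input).

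ER stress is read by membrane sensors that respond to unfolded protein in the ER lumen. IRE1 (Ern1) cuts an intron out of Xbp1 mRNA in the cytoplasm, ATF6 moves to the Golgi where site-1 and site-2 proteases (Mbtps1 and Mbtps2) release its transcription factor part, and PERK (Eif2ak3) phosphorylates eIF2 and lowers translation. B cells that become antibody-secreting cells depend on IRE1 and XBP1 for their secretory capacity. UPF1 is an RNA helicase of nonsense-mediated mRNA decay, and its phosphorylated form recruits decay factors to an mRNA. The comparison asks which of these mRNAs were recovered with p-UPF1 beyond both backgrounds.

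Total counts ran from 19873687 to 24945286 in input, from 17372510 to 18550508 in IgG and from 23251890 to 24802119 in p-UPF1 libraries. The 10 genes had between 191 and 23967 counts in a library. Replicates of each group differed beyond counting noise, with a chi-square per degree of freedom of 1.40 to 1.78 between input, 4.76 to 10.5 between IgG and 2.97 to 4.30 between p-UPF1 libraries. Taken over all genes, the IgG libraries thus varied most. This did not hold for each of the 10 genes, since Eif2ak3 and Eif2ak4 varied more between p-UPF1 libraries. The labels do not say that replicates came from separate animals or cultures, and p-values therefore measure the spread between these libraries. In input, 6 B cell markers summed to 3200 to 3223 CPM (counts per 1000000, with library totals scaled by TMM factors), against 0.606 to 0.917 for 5 T cell, 0.353 to 0.852 for 4 myeloid and 0.0505 to 0.162 for 2 NK cell markers. The plasma cell markers Sdc1, Prdm1 and Jchain together lay at 21.8 to 25.2 CPM in input. Ncr1 and Hba-a1, which define NK and erythroid cells, had no count in input.

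The 10 mRNAs did not move together. Atf6, Mbtps1, Ern1 and Eif2ak3 were higher in p-UPF1 than in both backgrounds, and Xbp1, Atf6b, Eif2s1, Eif2ak1 and Mbtps2 were lower than in both, except when libraries were scaled to equal mRNA of the mitochondrial genome. That scaling moved the median log2 fold change of all genes to 4.66 over IgG and 5.00 over input and placed all 10 above 0, so higher and lower here are relative to the other mRNAs of a library. Eif2ak4 was higher than in input and did not pass the test against IgG. Each log2 fold change below comes from edgeR's quasi-likelihood test, with p-values adjusted by Benjamini-Hochberg over all 13129 genes and a threshold of 0.05. Over IgG, 4 of 10 were higher, where 40.4% of all tested genes were, and 5 were lower, where 42.2% were. Over input, 5 were higher and 5 lower, where the shares of all genes were 40.8% and 42.6%. The counts of members called were thus near those of all genes. The median log2 fold change of the 10 was -0.30 over IgG and -0.09 over input, and that of all genes was -0.03 over both. The p-UPF1 libraries enter both contrasts, so the contrasts are not independent of each other. All values are shares of a library, since the amount of RNA in a precipitate is not known. For the level of an mRNA within a group, the share of cells that hold it and its amount per cell cannot be told apart in bulk libraries.

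The study's methods call an RNA p-UPF1-bound if it passes both tests and its log2 fold change reaches 1 over IgG and 2 over input. None of the 10 met it (0 of 10, where 6.25% of all genes did). The first part, a value of 1 or more over IgG, was met by 3 of 10 (Atf6, Mbtps1 and Ern1) and by 22.2% of all genes. None reached 2 over input, where 6.31% of all genes did. Atf6 came closest, at 1.97 over input with a standard error (SE) of 0.05. This call depended on the settings, since Atf6 met both parts with DESeq2 (log2 fold change over input, 2.01), with DESeq2's size factors (2.01), with an IgG library as TMM reference (2.10), with no filter on low counts (2.10) and without the library p-UPF1 A (2.01). In these settings 854 to 1088 of all genes met it, against 820 as reported. With scaling to the mRNAs of the mitochondrial genome, all 10 met it, as did 12719 of all tested genes.

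**Figure D1:**
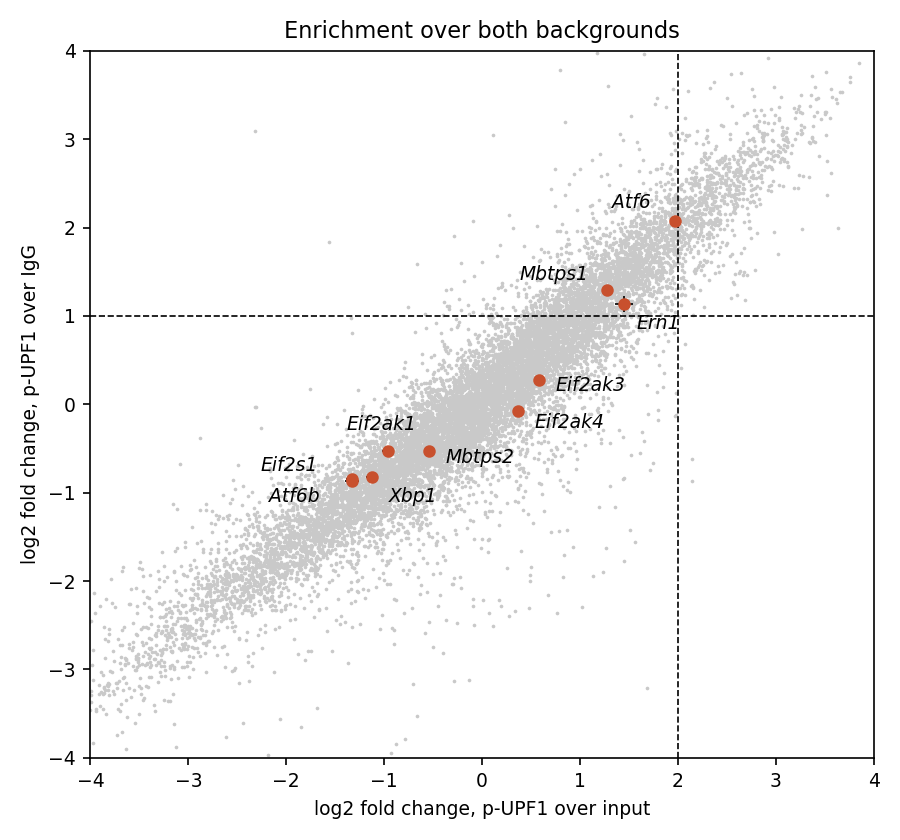
Log2 fold change of p-UPF1 over input (x axis) and over IgG (y axis) for the 10 genes (orange, error bars are SE) and all 13129 tested genes (grey), with the minima of the study's criterion as dashed lines. Atf6 lies at 1.97 and 2.08, just left of the line at 2, Mbtps1 and Ern1 lie above the line at 1, and 98 genes outside the axes are not drawn.

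ATF6 is a membrane-bound transcription factor that activates chaperone genes, and ATF6B is its paralog. Their mRNAs differed in direction. Atf6 (NCBI Gene 226641, chr1:170704457-170868585, minus strand, GRCm38) was at 264, 264 and 269 CPM in input, at 222, 260 and 257 CPM in IgG and at 1010, 1052 and 1055 CPM in p-UPF1 libraries. Every p-UPF1 library was far above every library of the backgrounds, and the IgG libraries lay just below those of input. Its log2 fold change was 2.08 (SE 0.05, adjusted p = 1.15e-15) over IgG and 1.97 (SE 0.05, adjusted p = 1.63e-15) over input by edgeR's quasi-likelihood test, values that exceeded those of 93.9% and 93.3% of tested genes. IgG and input did not differ past the threshold (log2 fold change -0.11, SE 0.05, adjusted p = 0.0850), although this contrast passed when IgG B (-0.16) or IgG C (-0.15) was left out, and also with the letter that ends each column name as a replicate block (-0.11, adjusted p = 0.0329).

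Atf6b (12915, chr17:34647146-34655074, plus strand) was at 95.5, 92.6 and 93.8 CPM in input, at 73.8, 59.1 and 72.9 CPM in IgG and at 36.7, 37.9 and 37.9 CPM in p-UPF1 libraries. The groups were fully separated, with input highest and p-UPF1 lowest. It was lower in p-UPF1 than in IgG by a log2 fold change of -0.87 (SE 0.07, adjusted p = 6.14e-09) and lower than in input by -1.33 (SE 0.07, adjusted p = 1.50e-11). IgG itself was below input (-0.46, SE 0.07, adjusted p = 2.99e-05). Of all genes, 37.6% had every p-UPF1 library below every library of both backgrounds, and 37% had every one above.

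The ratio of Atf6 to Atf6b counts within a library does not depend on any scaling between libraries. It was 2.77, 2.85 and 2.86 in input, 3.01, 4.39 and 3.52 in IgG, and 27.5, 27.7 and 27.9 in p-UPF1 libraries. On the log2 scale the p-UPF1 ratio stood 2.94 (SE 0.16) above that of IgG and 3.29 (SE 0.02) above that of input. The ratios of gene pairs were chosen with these values known and are given without a test.

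The annotated ends of both mRNAs are shown because they differ in what follows the stop codon, and the end of translation is the step that nonsense-mediated decay monitors. Each window holds the last 12 coding bases, the stop codon in capitals and the first 12 bases of the 3' UTR. The bases are those of the GENCODE M21 transcript, and the stop codon was checked against RefSeq's GRCm38 genome.
Atf6, chr1:170709879-170709881 (stop codon), minus strand: gagtcgttgcagTAGtgcccgagctgc
Atf6b, chr17:34654695-34654697 (stop codon), plus strand: ctcaatcaccccTGAcatcctcacctc
By GENCODE M21, whose transcripts gave the lengths here, the 3' UTR after the Atf6 stop has 5205 bases, longer than in 97.1% of 11874 genes with a coding transcript. That of Atf6b has 377 bases, longer than in 24.2%. Neither 3' UTR holds an exon junction, and none of the 10 genes has one in the transcript used, where 3.87% of genes do. Atf6b is the 1 gene of the 10 with isoforms annotated as targets of nonsense-mediated decay (2 of 5 transcripts), a property of 29.0% of 12032 genes.

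Site-1 protease (Mbtps1) and site-2 protease (Mbtps2) cut ATF6 one after the other in the Golgi, as they also cut the sterol-regulated SREBP factors. Mbtps1 (56453, chr8:119508151-119558864, minus strand) was at 124, 129 and 132 CPM in input, at 124, 128 and 130 CPM in IgG and at 312, 314 and 307 CPM in p-UPF1 libraries. The backgrounds overlapped and the p-UPF1 libraries stood well above them. The log2 fold change was 1.29 (SE 0.04, adjusted p = 1.65e-14) over IgG and 1.28 (SE 0.04, adjusted p = 1.49e-14) over input by edgeR's test, and that of IgG over input was -0.01 (SE 0.04, adjusted p = 0.801). The last value had no stable sign across scalings, and at 0.10 it passed the test when libraries were scaled by size alone.

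Mbtps2 (270669, chrX:157547822-157598715, minus strand) was at 55.8, 53.9 and 54.2 CPM in input, at 52.4, 55.2 and 54.3 CPM in IgG and at 38.3, 35.6 and 38.6 CPM in p-UPF1 libraries. Here too the backgrounds overlapped, but the p-UPF1 libraries lay below both. The log2 fold change was -0.53 (SE 0.05, adjusted p = 9.47e-08) over IgG and -0.54 (SE 0.05, adjusted p = 5.16e-08) over input by edgeR's test. The ratio of Mbtps1 to Mbtps2 counts was 8.30 ± 0.451 in p-UPF1 libraries against 2.35 ± 0.0406 in IgG and 2.35 ± 0.109 in input (SD, n = 3). Atf6 and its first protease were thus recovered above both backgrounds, and Atf6b and the second protease below them.

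The stop codons of the proteases are shown beside those of the ATF6 pair, because their 3' UTR lengths run the other way.
Mbtps1, chr8:119508779-119508781 (stop codon), minus strand: accccatcagtgTGAgcatcgcagtag
Mbtps2, chrX:157550928-157550930 (stop codon), minus strand: gttacagcacggTAAtgtttgctctca
The 3' UTR has 623 bases in Mbtps1, longer than in 36.4% of genes, and 3104 bases in Mbtps2, longer than in 88.0%. Mbtps1 has another feature, 10 ATG triplets in its annotated 5' UTR of 554 bases, more than 98.6% of genes, each followed by an in-frame stop codon within the 5' UTR. Mbtps2 has 2 such triplets in 145 bases. Counting all upstream ATG triplets, Atf6, Ern1, Eif2ak1 and Eif2ak4 have 0, Xbp1 and Atf6b 1, Eif2s1 2 and Eif2ak3 3. Across 11874 genes, Spearman's rho between their number and the log2 fold change was 0.11 over IgG and 0.12 over input.

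**Figure D2:**
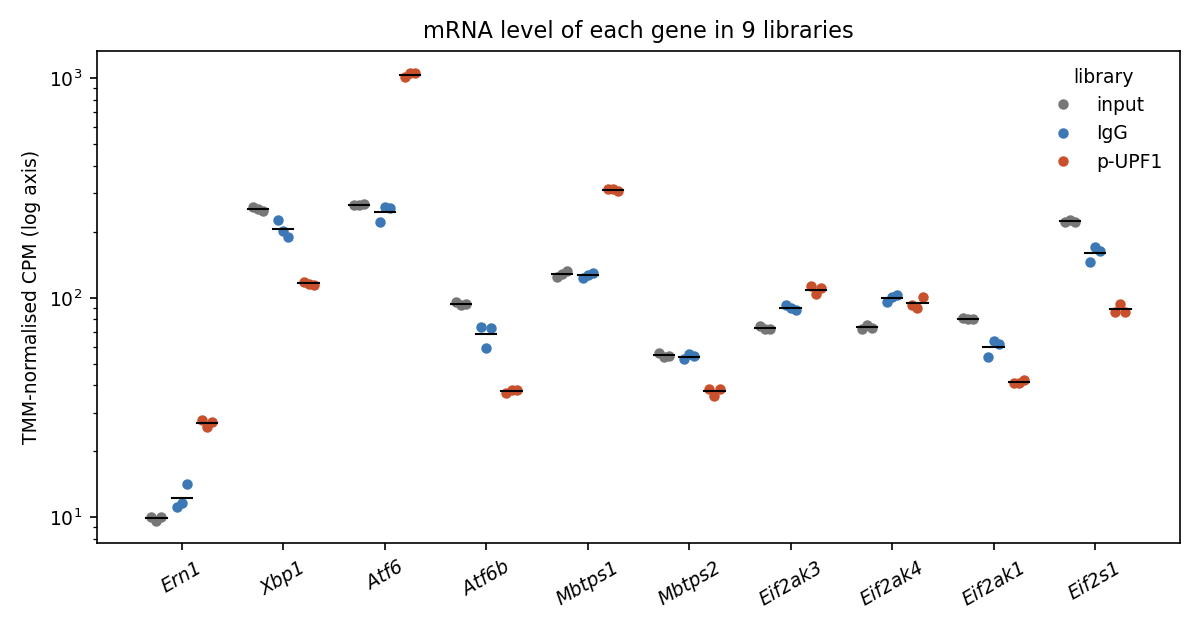
TMM-normalised CPM (log axis) of the 10 genes in each of the 9 libraries, with input in grey, IgG in blue and p-UPF1 in orange, and a black bar at the mean of each group. The p-UPF1 points stand above both backgrounds for Ern1, Atf6, Mbtps1 and Eif2ak3 and below them for Xbp1, Atf6b, Mbtps2, Eif2ak1 and Eif2s1, and the Eif2ak4 points of p-UPF1 and IgG overlap.

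Ern1 encodes IRE1 alpha, a kinase and endonuclease of the ER membrane, and Xbp1 encodes the transcription factor whose mRNA IRE1 cuts. Ern1 (78943, chr11:106397620-106487796, minus strand) was at 10.1, 9.64 and 10.0 CPM in input, at 11.2, 11.6 and 14.2 CPM in IgG and at 27.9, 25.9 and 27.3 CPM in p-UPF1 libraries. All p-UPF1 libraries were above all others, and the IgG libraries were above input. Ern1 exceeded the backgrounds by 1.13 (SE 0.09, adjusted p = 5.42e-09) over IgG and 1.45 (SE 0.09, adjusted p = 2.32e-10) over input. That of IgG over input was 0.31 (SE 0.10, adjusted p = 0.0158 by edgeR's test), and it no longer passed without input B (0.29) or without IgG C (0.19).

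Xbp1 (22433, chr11:5520641-5525993, plus strand) was at 259, 253 and 250 CPM in input, at 225, 202 and 189 CPM in IgG and at 119, 115 and 115 CPM in p-UPF1 libraries. The 3 groups did not overlap, in the order input, IgG and p-UPF1. Against the backgrounds Xbp1 was at -0.82 (SE 0.05, adjusted p = 3.94e-10) over IgG and -1.13 (SE 0.05, adjusted p = 4.63e-12) over input by edgeR's test, and IgG was below input by -0.31 (SE 0.05, adjusted p = 0.000145). The ratio of Ern1 to Xbp1 counts was 0.232 ± 0.00697 in p-UPF1 libraries against 0.0607 ± 0.0132 in IgG and 0.0390 ± 0.00109 in input (SD, n = 3). The mRNA of the enzyme and that of its substrate thus differed in direction, as the paired genes of the ATF6 branch did.

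The segment that IRE1 removes from Xbp1 is shown because the counts cannot resolve it. It lies in exon 4 of 5, and the 26 bases in capitals are present in one RefSeq transcript and absent from the spliced one. The repeat gcagca at both edges leaves the exact cut ambiguous by up to 6 bases to the right.
Xbp1, chr11:5524258-5524323, plus strand, GRCm38: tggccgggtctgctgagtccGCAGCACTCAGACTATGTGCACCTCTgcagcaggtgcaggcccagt
Reads with and without this segment fall in the same gene count, so the values above pool both forms of Xbp1 mRNA, and the share of each was not analysed here.

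The eIF2 kinases each answer a different stress and phosphorylate the alpha subunit of eIF2, encoded by Eif2s1. Their mRNAs took different positions. PERK (Eif2ak3, 13666, chr6:70844484-70905241, plus strand), the ER kinase, was at 74.8, 72.0 and 71.9 CPM in input, at 92.9, 89.8 and 88.3 CPM in IgG and at 113, 104 and 110 CPM in p-UPF1 libraries. The groups did not overlap, with IgG between input and p-UPF1. PERK mRNA had a log2 fold change of 0.27 (SE 0.05, adjusted p = 3.79e-05) over IgG and 0.58 (SE 0.05, adjusted p = 3.77e-09) over input by edgeR's test, and IgG exceeded input by 0.31 (SE 0.05, adjusted p = 3.98e-05). The value over IgG was 0.11 with library size alone (adjusted p = 0.0412 by edgeR's test) and 0.13 with upper-quartile factors (adjusted p = 0.0134).

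GCN2 (Eif2ak4, 27103, chr2:118388583-118475234, plus strand), which senses uncharged tRNA, was at 72.1, 75.3 and 73.3 CPM in input, at 95.3, 101 and 104 CPM in IgG and at 93.0, 89.9 and 101 CPM in p-UPF1 libraries. Both precipitates were above input and overlapped each other. The log2 fold change was 0.36 (SE 0.05, adjusted p = 6.31e-06) over input and 0.44 (SE 0.05, adjusted p = 3.30e-06) for IgG over input. That over IgG was -0.08 (SE 0.05, adjusted p = 0.171 by edgeR's test), and it passed the threshold without IgG A (-0.11) or without p-UPF1 C (-0.12). It also passed with library size alone (-0.24), upper-quartile factors (-0.21) and an input library as TMM reference (-0.16).

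HRI (Eif2ak1, 15467, chr5:143817792-143902717, plus strand), the kinase controlled by heme, was at 80.5, 80.5 and 80.3 CPM in input, at 53.8, 63.3 and 61.5 CPM in IgG and at 40.8, 40.8 and 42.1 CPM in p-UPF1 libraries. The p-UPF1 libraries were lowest, and no groups overlapped. In log2 terms HRI mRNA was at -0.53 (SE 0.06, adjusted p = 3.48e-07) against IgG, -0.96 (SE 0.06, adjusted p = 9.22e-11) over input and -0.43 (SE 0.06, adjusted p = 9.27e-06) for IgG over input. On the opposite strand it overlaps Aimp2, which had 51.1 CPM in input and 14.4 in p-UPF1 libraries (log2 fold change -1.83), and Ankrd61, which had 0.355 CPM in input. If strand was not used in counting, reads from these genes cannot be told apart, and the same holds for Atf6 and the noncoding gene Gm9929, which was not analysed here.

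Eif2s1 (13665, chr12:78862072-78887010, plus strand), the common substrate, was at 221, 227 and 222 CPM in input, at 145, 170 and 163 CPM in IgG and at 86.7, 93.9 and 85.8 CPM in p-UPF1 libraries. The groups were separate, with p-UPF1 lowest. Its log2 fold change was -0.85 (SE 0.06, adjusted p = 4.27e-10) against IgG, -1.33 (SE 0.06, adjusted p = 7.67e-13) over input and -0.49 (SE 0.05, adjusted p = 1.79e-06) for IgG over input by edgeR's test. Relative to Eif2s1 in the same library, Eif2ak3 counts stood at 1.23 ± 0.107 with p-UPF1 against 0.570 ± 0.0619 with IgG and 0.327 ± 0.0103 without precipitation (SD, n = 3). Those of Eif2ak4 stood at 1.07 ± 0.112, 0.628 ± 0.0332 and 0.330 ± 0.00319 in the same order. The ratio of Eif2ak1 was closer between groups, at 0.465 ± 0.0287, 0.373 ± 0.00322 and 0.360 ± 0.00458.

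**Figure D3:**
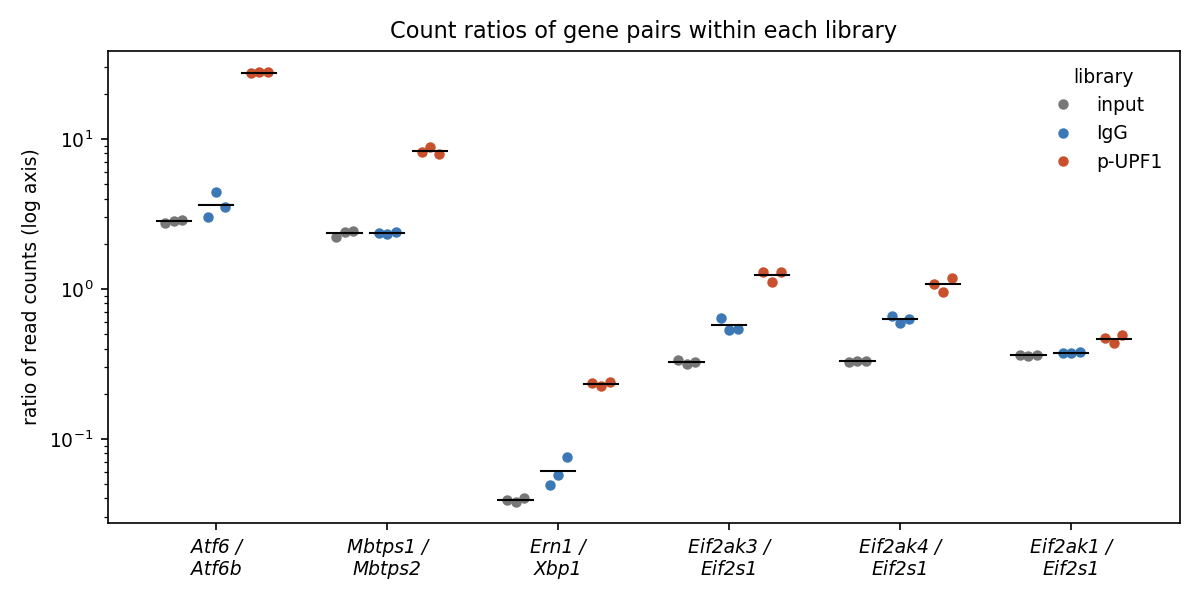
Ratio of read counts of 6 gene pairs within each library (log axis), with input in grey, IgG in blue, p-UPF1 in orange and a black bar at the mean of each group. The p-UPF1 ratios lie above both backgrounds in every pair shown, by the widest margin for Atf6 over Atf6b (27.7 ± 0.172 against 3.64 ± 0.699 in IgG, SD, n = 3). The pairs were chosen with these values known, and inverting a ratio would invert its direction.

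For the contrast of IgG over input, 3 of the 10 were higher (Ern1, Eif2ak3 and Eif2ak4, where 18.2% of all genes were) and 4 were lower (Xbp1, Atf6b, Eif2ak1 and Eif2s1, where 34.7% were). This contrast shares the input libraries with that of p-UPF1 over input. Atf6, Mbtps1 and Mbtps2 did not pass this test. The 10 genes together held 0.181% ± 0.00138 of the reads of p-UPF1 libraries, 0.120% ± 0.000877 of those of IgG and 0.124% ± 0.000987 of those of input (SD, n = 3). This order rested on Atf6, since the other 9 held 0.0822% ± 0.000705 in p-UPF1 libraries, less than the 0.0934% ± 0.00104 in IgG and the 0.0975% ± 0.000733 in input.

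Levels between genes were compared as CPM per kilobase of the longest coding transcript in GENCODE M21. In input the order was Xbp1 at 119 ± 2.29, Eif2s1 at 65.6 ± 0.863, Atf6 at 36.6 ± 0.373, Atf6b at 36.6 ± 0.552, Mbtps1 at 29.6 ± 0.881, Eif2ak1 at 18.6 ± 0.0361, Eif2ak3 at 16.2 ± 0.363, Eif2ak4 at 13.9 ± 0.300, Mbtps2 at 11.4 ± 0.214 and Ern1 at 1.43 ± 0.0341 CPM per kilobase (SD, n = 3). Only the libraries of Atf6 and Atf6b overlapped among neighbours. In p-UPF1 libraries Atf6 came first at 143 ± 3.52, followed by Mbtps1 at 71.7 ± 0.861, Xbp1 at 54.6 ± 0.974, Eif2s1 at 26.1 ± 1.32 and Eif2ak3 at 24.2 ± 0.975 CPM per kilobase, and Ern1 stayed last at 3.89 ± 0.149. No neighbours overlapped there, and Eif2s1 and Eif2ak3 came closest. Levels and some neighbours depend on the annotation, since RefSeq gives other lengths, most of all for Ern1 and Eif2ak1, whose mRNAs it ends earlier. Per kilobase of the longest curated RefSeq mRNA, Eif2ak1 stood at 28.9 ± 0.0560 in input and overlapped Mbtps1 at 29.3 ± 0.873, and Atf6b at 36.6 ± 0.552 came before Atf6, which is longer in RefSeq, at 35.6 ± 0.362 without overlap. In p-UPF1 libraries Eif2ak1 at 14.8 ± 0.268 then overlapped Atf6b at 14.6 ± 0.273 CPM per kilobase. Ern1 was last of the 10 with both annotations, at 2.49 ± 0.0595 in input and 6.79 ± 0.261 in p-UPF1 libraries by RefSeq, while its log2 fold change was the second highest over input and the third over IgG.

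The 10 genes were also set against the length of their 3' UTR, a feature that the choice of genes did not use. Across 11874 genes, 3' UTR length and the log2 fold change were weakly related, with Spearman's rho of 0.32 over IgG, 0.33 over input and 0.12 for IgG over input. For the whole transcript, whose length includes the 3' UTR, rho was 0.28, 0.33 and 0.31 in the same order. That for the coding sequence was 0.13, 0.20 and 0.35. The parts of a transcript were not separated by a test. These values describe genes within the same libraries, and genes are not independent replicates. With curated RefSeq mRNAs, a choice added after seeing the data, rho of the 3' UTR was 0.36, 0.37 and 0.17 in the same order over 11896 genes. Among the 10, Atf6 had the longest 3' UTR in both annotations (5205 bases in GENCODE and 5422 in RefSeq) and the highest log2 fold change over either background. Mbtps2 (3104 and 3106 bases) and Eif2s1 (2094 in both) were long as well and lay below 0, and Mbtps1 (623 and 628 bases) and Eif2ak4 (174 in both) were short and lay above it over input. The annotations disagreed for Ern1, at 3892 bases in GENCODE and 922 in RefSeq, and for Eif2ak1, at 2362 and 828. Ern1 was thus longer than 93.1% of genes by one and 46.7% by the other, and its place relative to the trend is not settled. The median 3' UTR of the 10 was above that of all genes in GENCODE (1542 against 983 bases) and below it in RefSeq (875 against 1015). Of stop codons, 5 were TGA, 3 TAG and 2 TAA, where 51.6%, 23.3% and 25.1% of 11869 genes had them.

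**Figure D4:**
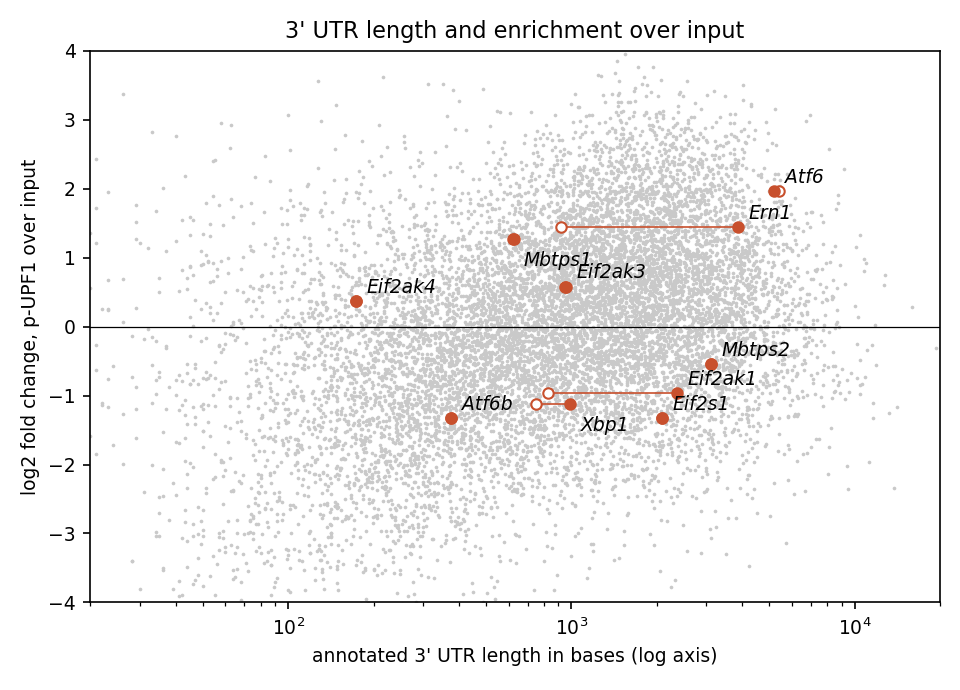
Annotated 3' UTR length in bases (x, log axis) against the log2 fold change of p-UPF1 over input (y) for the 10 genes, with GENCODE lengths as filled and RefSeq lengths as open orange circles joined by a line, and for 11874 genes with a coding transcript in GENCODE (grey), of which 186 lie outside the axes. Atf6 lies at the upper right and Mbtps2 and Eif2s1 have long 3' UTRs with values below 0 by both annotations, whereas the 2 circles of Ern1 (3892 and 922 bases) and of Eif2ak1 (2362 and 828 bases) lie far apart.

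By the smallest distance between centred log2 CPM values over the 9 libraries, among 8992 genes of at least 10 CPM, the patterns most like that of Atf6 were those of Klf6 (distance 0.114), Usp22 (0.117) and Phf2 (0.122). Their log2 fold changes over input were 1.958, 1.941 and 1.997, and none met the criterion. For Atf6b, the lowest of the 10 over IgG, they were Prkaca (0.204), Fdft1 (0.206) and Snx20 (0.219), at -1.34, -1.23 and -1.29 over input.

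Other genes around eIF2 were examined as a list of 19, all of which were tested. Over input 9 were higher (40.8% of all genes were), 9 lower (42.6%) and 1 did not pass, and over IgG 10 were higher (40.4% of all genes), 8 lower (42.2%) and 1 did not pass. The directions were thus near those of all genes. The median log2 fold change was 0.02 over input and 0.14 over IgG. The criterion, met by 6.25% of all genes, was met by 5 of the 19, namely Eif2ak2, Ppp1r15a, Ddit3, Trib3 and Impact. This list and those that follow were written with earlier results of these data known, so their counts describe the listed genes and test no pathway. Trib3, a pseudokinase induced by ATF4 and CHOP, was close to the minimum at 2.03 over input (SE 0.05), and it no longer met the criterion with library size alone or with upper-quartile factors. Eif2ak2 (PKR), the eIF2 kinase that binds double-stranded RNA, was at 461 ± 7.87 CPM in p-UPF1 libraries against 65.1 ± 6.17 in IgG and 57.8 ± 0.386 in input (SD, n = 3), with a log2 fold change of 2.996 (SE 0.06, adjusted p = 2.89e-17) over input and 2.82 over IgG. The other 3 kinases lay between -0.96 and 0.58 over input. Impact, an inhibitor of GCN2, followed at 2.42 over input and 2.08 over IgG, and Ddit3 (CHOP), a transcription factor of the stress response, at 2.33 and 2.39.

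The 3 lowest of that list over input were Eif2b2, Eif2s2 and Eif2b3. Eif2b2 (a subunit of the exchange factor eIF2B) was at -1.53 over input and -1.17 over IgG, Eif2s2 (eIF2 beta) at -1.30 and -1.05, and Eif2b3 at -0.93 and -0.40. Subunits of eIF2B did not share a direction, since Eif2b1 was higher, at 0.56 over input (adjusted p = 9.56e-07) and 1.03 over IgG (adjusted p = 6.26e-10) by edgeR's test. Eif2s1, the alpha subunit, was at -1.33 over input, and the third eIF2 subunit, Eif2s3x, was at 0.02 over input (adjusted p = 0.613 by edgeR's test) and passed over IgG at 0.14 (adjusted p = 0.00824). Opposite-strand genes overlap Eif2ak2, Ppp1r15a and Ddit3, whose values are uncertain if strand was not used.

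Of 16 genes of the IRE1 and XBP1 branch, 15 were tested, since Ern2 had 3 counts in all. Of these 2 were higher, 11 lower and 2 did not pass, over input (40.8% of all genes higher, 42.6% lower) and also over IgG (40.4% and 42.2%). The median was -0.62 over input and -0.61 over IgG, where that of all genes was -0.03 in both. Traf2, an adaptor that binds activated IRE1, was the 1 gene of the 15 that met the criterion (6.25% of all genes did), at 428 ± 9.04 CPM in p-UPF1 libraries against 54.8 ± 7.85 in IgG and 49.0 ± 0.851 in input (SD, n = 3), with 3.13 (SE 0.07, adjusted p = 3.76e-16) over input. Sec61a1, a subunit of the ER translocon, was at 0.48 over input, and Edem1, of ER-associated degradation, at -0.03 (adjusted p = 0.432 by edgeR's test). The lowest were Bloc1s1, a known mRNA substrate of IRE1, at -2.65, Dnajb9, an ER co-chaperone induced by XBP1, at -2.35, and Sdf2l1, another ER stress gene, at -2.16 over input. Dnajb9 was at 10.9 ± 0.583 CPM with p-UPF1 against 56.9 ± 3.71 with IgG and 55.9 ± 1.17 without precipitation (SD, n = 3). Ern1 and its adaptor Traf2 were above both backgrounds, and Xbp1 was below them. Traf2 and Edem1 overlap genes on the opposite strand.

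Of 15 genes of the protease axis and the partners of ATF6, 13 were tested, as Creb3l3 and Creb3l4 had 1 and 41 counts in all. Over input 4 were higher (40.8% of all genes were), 6 lower (42.6%) and 3 did not pass, and over IgG 5 were higher (40.4%), 5 lower (42.2%) and 3 did not pass, near the shares of all genes. The criterion was met by 2 of the 13, and by 6.25% of all genes. Nfya, a subunit of the NF-Y factor that binds DNA with ATF6, was at 1258 ± 31.8 CPM in p-UPF1 libraries against 156 ± 10.9 in IgG and 122 ± 1.13 in input (SD, n = 3), or 3.37 (SE 0.05, adjusted p = 2.63e-18) over input. Its partner subunits Nfyb and Nfyc were at -0.11 and -0.17 over input and did not pass (adjusted p = 0.0590 and 0.0817 by edgeR's test). Insig1, which holds SREBP in the ER, was at 2.36 and Gnptab, whose product site-1 protease cuts, at 1.02 over input. The lowest were Creb3l1 at -1.78 (SE 0.46, on 123 counts in all), Srebf2 at -1.23 and Creb3 at -1.12. Factors cut by these proteases did not share a direction, since Creb3l2 of the CREB3 family was higher, at 0.59 over input (adjusted p = 0.000654) and 1.20 over IgG (adjusted p = 8.12e-07) by edgeR's test. Opposite-strand genes overlap Insig1, Nfyb, Nfyc, Creb3 and Creb3l2.

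**Figure D5:**
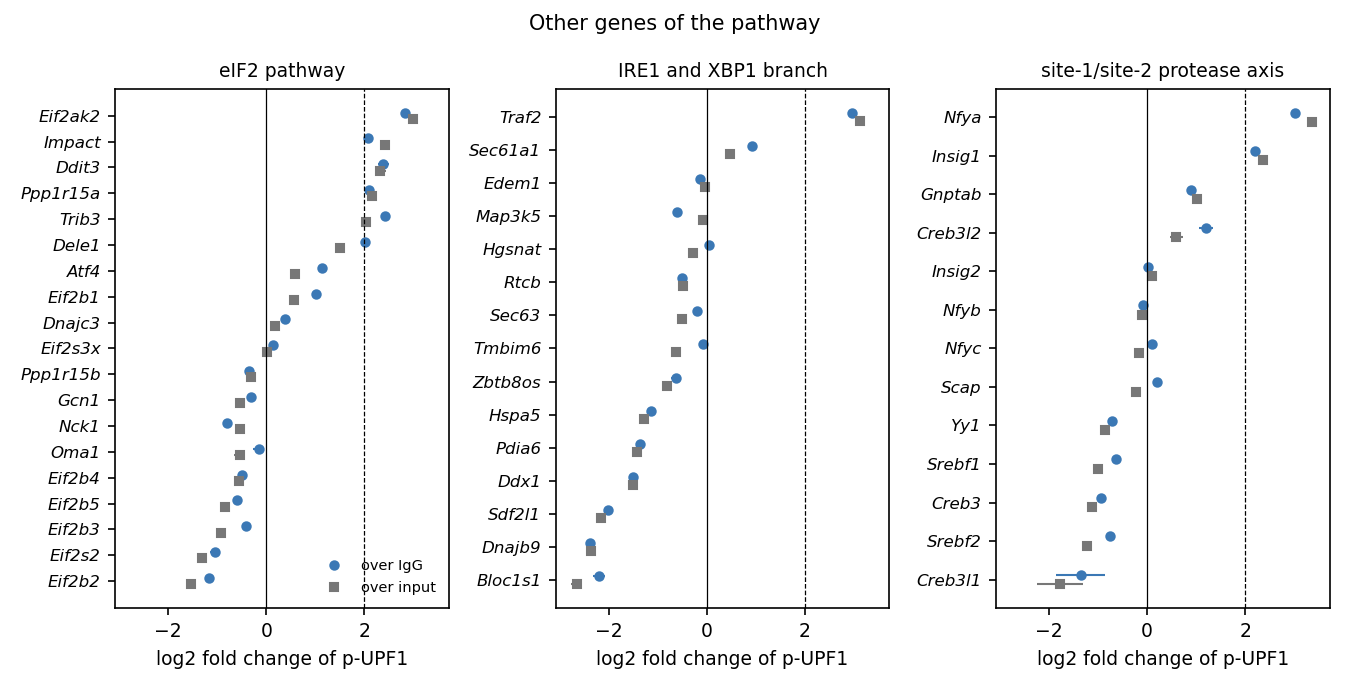
Log2 fold change of p-UPF1 over IgG (blue circles) and over input (grey squares), with SE bars, for the 47 tested genes of the 3 lists, ordered by the value over input, with a solid line at 0 and a dashed line at 2. Eif2ak2, Traf2 and Nfya lead the lists, at 2.996, 3.13 and 3.37 over input.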

How the data were processed

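RIP-seq libraries of activated mouse splenic B cells comprised 3 input, 3 IgG and 3 p-UPF1 libraries, grouped by their labels. The table deposited by the authors holds raw counts of reads for each gene in each library. The submitters' processing notes name cutadapt, HISAT2, featureCounts and mm10, without versions. Use of strand in counting the RIP-seq reads is not given in the sources used here, and reads carry no molecular identifiers. RefSeq gave a symbol for 25275 of 27179 identifiers. Positions are those of RefSeq on GRCm38, and UTR lengths those of GENCODE M21 transcripts, taking those linked to a curated RefSeq mRNA first and then the longest coding sequence. As RefSeq ends Ern1 and Eif2ak1 earlier, lengths of curated RefSeq mRNAs are given beside them.

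Counts were filtered with filterByExpr (minimum count 10, minimum total 15), scaled by TMM, and fitted for all 9 libraries with edgeR 4.0.16 in R 4.3.3 (glmQLFit and glmQLFTest, two-sided, 6 residual degrees of freedom, prior count 0.125), with Benjamini-Hochberg adjustment over 13129 genes. SE values were derived from the test statistic. TMM assumes that most genes do not change, and a RIP has no external standard, so directions are relative to the other RNAs of a library. DESeq2 1.42.0 and limma 3.58.1 (voom) served as alternatives, beside other scalings, filters and left-out libraries.

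All 10 genes are named, with the 3 highest and 3 lowest over input of each list of other genes, and others of the lists, chosen after their values were seen, where a count is explained or related genes differed in direction. The 10 genes, the lists and the gene pairs were chosen with earlier results of these data known.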

Additional observations from a re-analysis of the deposited data

How the results depend on the processing

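Each of 30 log2 fold changes (10 genes, 3 contrasts) was recomputed under 23 other settings, and 644 of 690 values kept their direction and their side of the threshold. Scaling to equal mitochondrially encoded mRNA moved the median of all genes to 4.66 over IgG, 5.00 over input and 0.24 for IgG over input. All 10 genes then met the criterion, 10 were higher and 0 lower over either background, and 6 were higher and 0 lower in IgG than in input. The values over IgG that changed sign were 3.87 (Xbp1), 3.82 (Atf6b), 4.16 (Eif2ak1), 4.62 (Eif2ak4), 3.85 (Eif2s1) and 4.17 (Mbtps2), all below the median of all genes. Over input they were 3.91 (Xbp1), 3.71 (Atf6b), 4.08 (Eif2ak1), 3.71 (Eif2s1) and 4.49 (Mbtps2), again below that median. For IgG over input they were 0.037 (Xbp1), 0.24 (Atf6), 0.33 (Mbtps1) and 0.33 (Mbtps2), and -0.11 (Atf6b), -0.088 (Eif2ak1) and -0.14 (Eif2s1) no longer passed. These shifts follow from the scaling, which moved the 10 genes and the median of all genes by similar amounts within a contrast. Why this scaling differed from the others was not tested.

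Without that scaling, 632 of 660 values kept direction and side, and 17 changed sign, all for IgG over input. Mbtps1 (-0.014 as reported) turned to 0.10 with library size alone, where it passed the test. It turned, without passing, to 0.016 with DESeq2's size factors, 0.056 with upper-quartile factors, 0.093 and 0.086 with an input and an IgG library as TMM reference, 0.074 with no low-count filter, 0.017 with DESeq2 and 0.093 with only the groups compared. Mbtps2 (-0.019) turned in the same settings to 0.096, 0.011, 0.051, 0.088, 0.081, 0.069, 0.011 and 0.088, and Atf6 to 0.0054 with library size alone, none of which passed. The number of genes that met the criterion went from 0 to 1 (Atf6) with DESeq2, with its size factors, with an IgG library as TMM reference and with no low-count filter, and ranged from 0 to 1 with 1 library left out. Atf6 over input ranged from 1.90 to 2.10 over the other settings, on both sides of the minimum of 2. Eif2ak4 over IgG passed with library size alone (-0.24), upper-quartile factors (-0.21) and an input library as TMM reference (-0.16), and ranged from -0.12 to -0.037 with 1 library left out. For IgG over input, Ern1 (0.31) did not pass at an adjusted p-value under 0.01 and ranged from 0.19 to 0.37 with 1 library left out, and Atf6 ranged from -0.16 to -0.049. The cause was not tested. The least-counted gene, Ern1, had the largest SE. Of the 8 listed genes that met the criterion, 7 met it in each of 22 other settings and Trib3 in 20 (1.97 to 2.17 over input). With edgeR's glmTreat, which tests against the minima themselves, 3 of 19 genes around eIF2 met it in place of 5. Of all 13129 genes, 541 did in place of 820. With scaling to mitochondrial mRNA all 47 listed genes met it, as did 12719 of all genes.

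Columns end in letters that cannot be tied to the numbers in the labels, so no block by replicate number could be fitted. Columns of the same letter in different groups deviated together in 9 pairs, at a correlation of 0.0683 to 0.209 over 8992 genes against -0.149 to 0.0300 for 18 pairs of different letters, and 8 of the 9 exceeded 0.1. The methods took input as a part of the lysate and used the rest for the precipitates. The labels do not say which libraries share a lysate, so that letters mark one is a hint from these values. The main fit took all libraries as unpaired. With the letter as a replicate block, a setting added after seeing the data, 0 genes met the criterion, 822 of all genes did against 820 without it, and of the 30 values only Atf6 for IgG over input changed its call (-0.11, adjusted p = 0.0329 by edgeR's test).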
